A study of Mus musculus with 4 samples.

Results

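LSK cells are bone marrow cells that lack lineage markers and carry SCA-1 and c-KIT, and they hold the hematopoietic stem and progenitor cells. The genes described here encode 10 enzymes of glycolysis, Hk1, Hk2, Gpi1, Pfkl, Pfkp, Aldoa, Tpi1, Pgk1, Pkm and Ldha, chosen by gene symbol, and all 10 are among the 18598 genes listed in the RNA-seq table. RNA was sequenced from LSK cells of about 3 month old C57BL/6 mice, with 2 libraries per genotype and the pooled cells of 5 mice in each library. Both genotypes carry Bptf alleles floxed at exon 2, and both received polyinosinic-polycytidylic acid (pIpC), an inducer of interferon. Bptf cKO mice (Bptf f/f;Mx1-cre, labelled Bptf -/-) also carry cre under the interferon-responsive Mx1 promoter, and the control littermates (Bptf f/f, labelled control) were taken as mice without cre, so loss of Bptf and the presence of active cre cannot be told apart in these libraries. The cells were sorted 10 days after cre induction.

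Glycolysis breaks glucose down to pyruvate in the cytosol. Hexokinases trap glucose, phosphofructokinase commits it to the pathway, aldolase splits it and triose phosphate isomerase interconverts the products. Phosphoglycerate kinase and pyruvate kinase then return ATP before lactate dehydrogenase turns pyruvate into lactate. Several steps have more than one gene, and the gene in use differs between tissues. Long-term hematopoietic stem cells are known for a strong reliance on glycolysis in the low oxygen of the bone marrow, where the hypoxia-inducible factors (HIFs) drive many of these genes through the core letters ACGTG or GCGTG.

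Reads on listed genes numbered 24875746 (Bptf f/f) and 30134742 (Bptf cKO) in the libraries numbered 1, and 14091054 and 14104526 in those numbered 2. The targeted gene, Bptf, had 5520 and 5850 normalized counts in the Bptf f/f libraries and 3398 and 3320 in the Bptf cKO libraries (log2 fold change -0.76, adjusted p = 0.0439 in limma), counted over the whole gene and not over the deleted exon. Its call was lost with edgeR on the recovered reads (adjusted p = 0.0531) and in limma after recentring on library medians (adjusted p = 0.0547) or without the trend (adjusted p = 0.178). DESeq2 on the recovered reads kept the call (adjusted p = 9.73e-08). So did limma and edgeR with replicate number as a block (adjusted p = 1.54e-04 and 2.53e-04). The call was also lost with any library left out, where the log2 fold change ran from -0.80 to -0.72. The direction stayed throughout. A normalized count is a gene's read count divided by the library's size factor. Kit, the gene of c-KIT, had between 13634 and 17051 normalized counts, and Ly6a, which encodes SCA-1, had between 726 and 1743, with the genotypes overlapping for both. The 9 LSK marker genes summed to between 50392 and 56992 normalized counts in Bptf f/f and between 42977 and 45056 in Bptf cKO, with none called and none at 0. Of their log2 fold changes 8 of 9 were negative, with a median of -0.60. At an unadjusted p under 0.05 in limma 2 were lower, beside 8.96% of all genes. For 3 of the 9 both Bptf cKO libraries were below both Bptf f/f libraries, beside 23.8% of all genes. The 2 Bptf f/f libraries stood apart from each other in other markers. The 10 myeloid marker genes summed to 65976 normalized counts in Bptf f/f replicate 1 and 15458 in replicate 2, against 57477 and 50073 in Bptf cKO, and none of the 10 was at 0 in any library. The 9 erythroid marker genes summed to between 1081 and 1112 in Bptf f/f and between 215 and 358 in Bptf cKO. All 8 tested erythroid genes had negative log2 fold changes, with a median of -2.01, and 1 was called, Epor, the erythropoietin receptor gene, which fell from 326 and 255 to 77.3 and 69.1 normalized counts (adjusted p = 0.0443 in limma). Their highest gene, Hbb-bt, had 147 and 499 normalized counts in Bptf f/f and 47.4 and 110 in Bptf cKO, and Hba-a2 was at 0 in at least 1 library. The 7 B cell marker genes summed to between 2139 and 8088 in Bptf f/f and between 2701 and 4526 in Bptf cKO, with Ms4a1 at 0 in at least 1 library. Of 8 T and NK cell markers only Cd4 and Nkg7 were listed, with sums of 1290 to 2046 in Bptf f/f and 2260 to 2304 in Bptf cKO, and the 6 megakaryocyte markers summed to between 5616 and 6848 and between 5021 and 5232. The part of these cell types in the results below was not tested, and in bulk samples fewer cells of a type cannot be told apart from less RNA per cell.

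The starts of Hk2 and Pfkp, the members with the largest differences between the genotypes, are shown beside those of Hk1 and Pfkl, the higher-expressed members of the same steps, whose libraries overlapped. Each window runs from 250 bases before to 50 bases after a gene start in RefSeq on GRCm38.p6, 5′ to 3′ along the gene's strand, and capitals mark ACGTG or GCGTG read on either strand (CACGT and CACGC on the other strand).
Hk2 (chr6:82774405-82774704, minus strand): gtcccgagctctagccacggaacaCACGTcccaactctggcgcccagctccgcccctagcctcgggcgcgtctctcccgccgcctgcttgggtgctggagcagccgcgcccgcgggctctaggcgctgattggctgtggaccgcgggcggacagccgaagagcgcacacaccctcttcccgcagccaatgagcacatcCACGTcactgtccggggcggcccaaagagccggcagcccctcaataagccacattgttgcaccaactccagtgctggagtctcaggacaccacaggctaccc
Pfkp (chr13:6648722-6649021, minus strand): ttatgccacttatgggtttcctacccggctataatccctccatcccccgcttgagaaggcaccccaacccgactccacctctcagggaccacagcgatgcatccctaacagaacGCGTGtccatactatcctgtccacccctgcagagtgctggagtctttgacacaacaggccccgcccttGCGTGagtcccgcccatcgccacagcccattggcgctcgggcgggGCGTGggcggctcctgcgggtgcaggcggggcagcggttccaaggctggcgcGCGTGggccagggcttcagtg
Hk1, upstream start (chr10:62379859-62380158, minus strand): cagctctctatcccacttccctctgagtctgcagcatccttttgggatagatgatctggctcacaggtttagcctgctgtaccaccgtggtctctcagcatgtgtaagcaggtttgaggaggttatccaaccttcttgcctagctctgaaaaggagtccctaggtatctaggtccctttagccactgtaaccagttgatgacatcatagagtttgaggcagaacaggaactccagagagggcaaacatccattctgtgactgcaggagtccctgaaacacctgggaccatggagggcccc
Hk1, downstream start (chr10:62340372-62340671, minus strand): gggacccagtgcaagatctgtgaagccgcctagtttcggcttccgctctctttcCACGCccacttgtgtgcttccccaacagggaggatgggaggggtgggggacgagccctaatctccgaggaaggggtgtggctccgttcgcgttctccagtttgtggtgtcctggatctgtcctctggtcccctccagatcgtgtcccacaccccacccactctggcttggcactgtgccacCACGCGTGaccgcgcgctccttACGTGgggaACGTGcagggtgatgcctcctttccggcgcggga
Pfkl (chr10:78009758-78010057, minus strand): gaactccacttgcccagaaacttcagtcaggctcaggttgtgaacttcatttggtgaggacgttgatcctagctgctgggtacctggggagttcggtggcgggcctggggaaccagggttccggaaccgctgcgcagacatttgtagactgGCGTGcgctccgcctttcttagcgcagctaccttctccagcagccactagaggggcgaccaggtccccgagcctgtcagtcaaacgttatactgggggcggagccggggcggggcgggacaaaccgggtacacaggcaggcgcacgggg
The Hk2 window held 2 copies of ACGTG and none of GCGTG, and the Pfkp window held 4 copies of GCGTG and none of ACGTG. The upstream window of Hk1 held neither, its downstream window held 5 copies of either, and Pfkl held 1. Over all 10 members, matched by symbol to 15 windows, 8 members had at least 1 window with either motif, and 10 of the 15 windows held one. Either motif was present in 43.8% of all 32851 windows of this length, ACGTG in 19.6% and GCGTG in 32.4%. These shares are per window, and a member with several windows had more chances to hold a motif. The windows are also not all separate, since some Aldoa windows overlap and hold the same marked site. The E-box CACGTG, the core bound by MYC and related factors, which contains ACGTG on both strands, was found among the members only in the first Ldha window, with 2 copies, and in 7.15% of all windows. These letters describe the windows and carry no measurement of binding.

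The members were among the more highly expressed genes of LSK cells. Per transcript length, as TPM (recovered reads divided by the length of 1 GENCODE transcript per gene, scaled to the same total in every library), Pkm was the highest with 665 and 761 TPM in Bptf f/f and 818 and 907 in Bptf cKO. Ldha followed with 653, 719, 734 and 805 TPM in the same order of libraries, and Aldoa with between 556 and 649. Pkm was above Ldha in all 4 libraries, although their ranges over libraries overlapped. Gpi1 (428 to 464 TPM) and Tpi1 (374 to 462 TPM) came next, and these neighbours overlapped, Gpi1 being higher in 3 libraries. Hk1 (267 to 307 TPM) and Pgk1 (209 to 304 TPM) were not ordered either, each being higher in 2 libraries. Pfkl had 149 to 157 TPM, the narrowest range of the members. Pfkp had 39.8 to 96.8 TPM and Hk2 had 29.0 to 57.3 TPM, with Pfkp above Hk2 in each of the 4 libraries. By mean TPM, 8 of the members lay above at least 92.9% of the listed genes, Pfkp above 80.4% and Hk2 above 71.5%. Together the members took 0.350% and 0.375% of the TPM in Bptf f/f libraries and 0.384% and 0.412% in Bptf cKO libraries. The genotypes did not overlap in this share, and the exact two-sided permutation test gave p = 0.333, the smallest value that n = 2 against n = 2 allows.

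None of the 10 members passed an adjusted p of 0.05 in limma, where 110 of 14858 genes tested passed, 0.740% of them. A pseudocount of 1 was added to each normalized count, log2 values were compared between genotypes, two-sided, over genes with a mean of at least 10, and fold changes are on that scale. At an unadjusted p under 0.05, Hk2 and Pfkp were higher in Bptf cKO and no member was lower, where 15.7% of all genes had such a p, 6.79% being higher and 8.96% lower. The median log2 fold change of the members was 0.15, with 8 positive and 2 negative values between -0.042 and 0.93, beside a median of 0.0010 over all genes tested. Both Bptf cKO libraries were above both Bptf f/f libraries for 5 members, Hk2, Pfkp, Pgk1, Pkm and Ldha, as for 23.2% of all genes, and for no member were both below, as for 23.8%. On the recovered reads edgeR's quasi-likelihood test called 0 members and 0.633% of all genes, with 2 members and 15.7% of all genes at an unadjusted p under 0.05. DESeq2 called 1 member, Pfkp, and 5.51% of all genes.

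**Figure D1:**
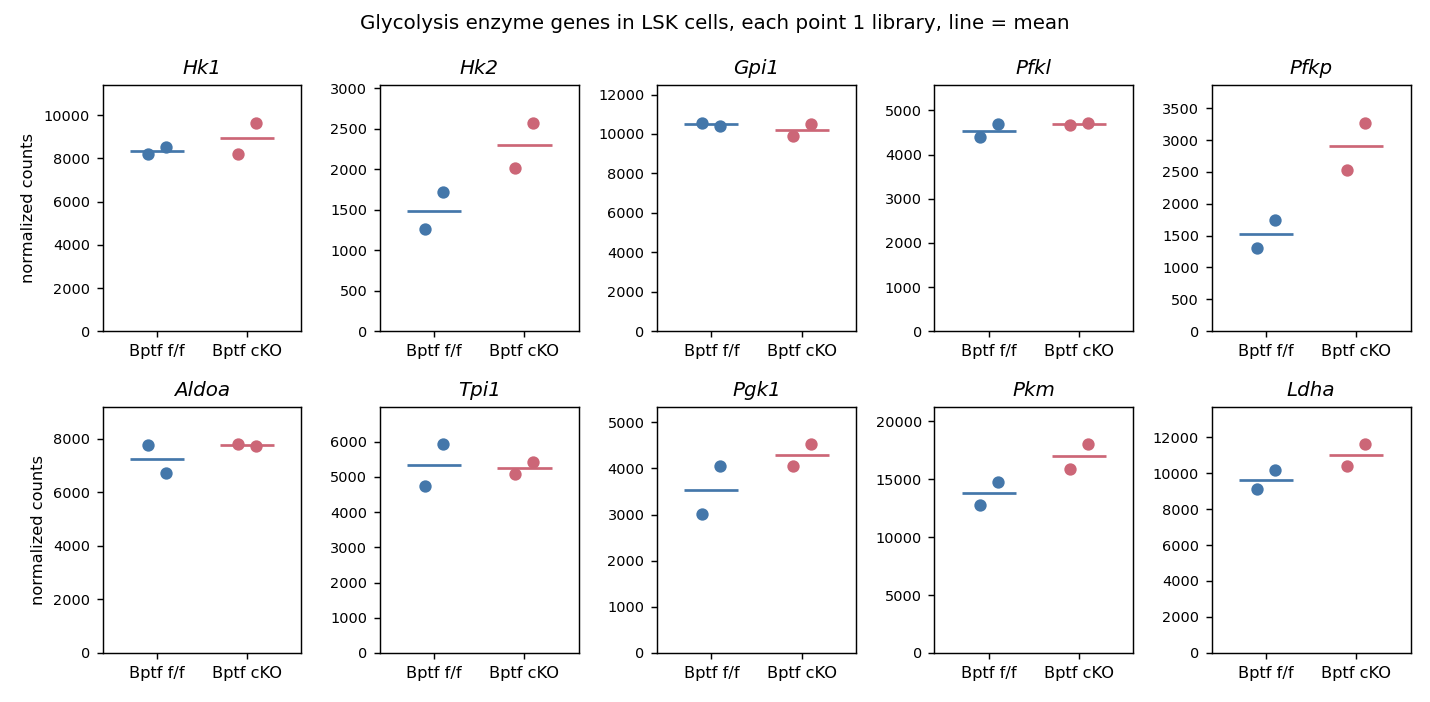
Normalized counts of the 10 members in each library, with 1 panel per gene, an axis from 0, points for the 2 libraries of Bptf f/f (blue) and Bptf cKO (red), replicate 1 at the left of each pair, and a line at the group mean. Hk2 and Pfkp show the widest separation, with Pfkp at 1304 and 1741 in Bptf f/f and 2524 and 3275 in Bptf cKO, while Gpi1, Pfkl and Tpi1 overlap.

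The first step of the pathway is served by hexokinases. Hk1, the hexokinase of most adult tissues, lies at 62268855 to 62379908 of chromosome 10 (GRCm38, annotation GENCODE vM21). It had 8201 and 8515 normalized counts in Bptf f/f and 8220 and 9661 in Bptf cKO, so the genotypes overlapped. Its log2 fold change was 0.093 (95% interval -0.19 to 0.38, adjusted p = 0.761 in limma). Hk2, the inducible hexokinase that binds mitochondria in growing cells and muscle, lies on chromosome 6 from 82725025 to 82774454. It had 1263 and 1716 normalized counts in Bptf f/f and 2022 and 2579 in Bptf cKO, from at least 1238 reads per library. Both Bptf cKO libraries were the higher ones. Its log2 fold change was 0.63 with a standard error of 0.20 (adjusted p = 0.232 in limma), with an unadjusted 95% interval from 1.10-fold to 2.19-fold. The difference was 0.68 between the libraries numbered 1 and 0.59 between those numbered 2 on the log2 scale, while same-genotype libraries were 0.44 apart in Bptf f/f and 0.35 apart in Bptf cKO.

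Glucose phosphate isomerase, encoded by Gpi1 on chromosome 7 from 34201330 to 34230336, converts glucose 6-phosphate to fructose 6-phosphate. Gpi1 had 10581 and 10393 normalized counts in Bptf f/f and 9883 and 10502 in Bptf cKO. The libraries of the genotypes overlapped, and the log2 fold change was -0.042 (95% interval -0.27 to 0.19, adjusted p = 0.883 in limma).

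Phosphofructokinase catalyses the committed step and is built from liver (Pfkl), platelet (Pfkp) and muscle (Pfkm) subunits. Pfkl, on chromosome 10 from 77986947 to 78010083, had 4400 and 4682 normalized counts in Bptf f/f and 4676 and 4727 in Bptf cKO. Its log2 fold change was 0.051 (95% interval -0.18 to 0.28, adjusted p = 0.849 in limma), so changes of more than 1.21-fold upward lay outside the unadjusted interval. Pfkp, on chromosome 13 from 6579768 to 6648777, had 1304 and 1741 normalized counts in Bptf f/f and 2524 and 3275 in Bptf cKO, from at least 1256 reads per library. The lower Bptf cKO library exceeded the higher Bptf f/f library by a wider gap than that between the Bptf f/f libraries. Its log2 fold change was 0.93 with a standard error of 0.19 (adjusted p = 0.120 in limma), with an unadjusted 95% interval from 1.36-fold to 2.68-fold. DESeq2 on the recovered reads gave Pfkp an adjusted p of 0.00119. The difference was 0.95 between the libraries numbered 1 and 0.91 between those numbered 2. Leaving out Bptf f/f replicate 2, the library with the lowest myeloid sum, gave 1.14 (adjusted p = 0.112 in limma), while leaving out Bptf f/f replicate 1 gave 0.72 (adjusted p = 0.184 in limma), Bptf cKO replicate 1 gave 1.12 (adjusted p = 0.237 in limma) and Bptf cKO replicate 2 gave 0.74 (adjusted p = 0.538 in limma). The exons of Pitrm1, a neighbour on the other strand, cover 18.0% of the Pfkp transcript, and the sources used here do not state whether counting used strand. Pitrm1 had 2874 and 3389 normalized counts in Bptf f/f and 3098 and 3523 in Bptf cKO (log2 fold change 0.082), overlapping between genotypes.

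Aldolase A, from Aldoa on chromosome 7 at 126795234 to 126800751, splits fructose bisphosphate, and triose phosphate isomerase, from Tpi1 on chromosome 6 at 124810586 to 124814296, interconverts the products. Aldoa had 7759 and 6709 normalized counts in Bptf f/f and 7789 and 7725 in Bptf cKO, with a log2 fold change of 0.10 (95% interval -0.17 to 0.37, adjusted p = 0.708 in limma). Tpi1 had 4750 and 5928 in Bptf f/f and 5086 and 5414 in Bptf cKO, with a log2 fold change of -0.016 (95% interval -0.35 to 0.32, adjusted p = 0.973 in limma). Bptf cKO values of Tpi1 lay between those of the 2 Bptf f/f libraries, and for Aldoa the replicate 1 libraries of both genotypes were nearly level.

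The members of the second phase of the pathway were each higher in both Bptf cKO libraries, by smaller amounts. Phosphoglycerate kinase, from Pgk1 on chromosome X at 106187100 to 106203699, makes the first ATP of this phase. Pgk1 had 3018 and 4044 normalized counts in Bptf f/f and 4060 and 4523 in Bptf cKO (log2 fold change 0.29, 95% interval -0.12 to 0.71, adjusted p = 0.462 in limma). The gap between 4044 and 4060 normalized counts is smaller than the counting error of Pgk1, up to 1.85% (SD) in a library, and the log2 fold change was 0.084 without Bptf f/f replicate 1 and 0.51 without replicate 2. Pyruvate kinase M, from Pkm on chromosome 9 at 59656368 to 59679375, makes pyruvate. Pkm had 12793 and 14784 normalized counts in Bptf f/f and 15915 and 18015 in Bptf cKO (log2 fold change 0.30, 95% interval -0.0075 to 0.61, adjusted p = 0.328 in limma), and values per gene do not separate its M1 and M2 splice forms. Lactate dehydrogenase A, from Ldha on chromosome 7 at 46841475 to 46855627, reduces pyruvate to lactate. Ldha had 9115 and 10145 normalized counts in Bptf f/f and 10366 and 11599 in Bptf cKO (log2 fold change 0.19, 95% interval -0.088 to 0.47, adjusted p = 0.481 in limma).

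The balance between isoenzyme genes of a step was compared next, since the ratio of 2 genes within a library does not depend on the size factor. Relative to Pfkl, Pfkp stood at -1.75 and -1.43 (log2 ratio of normalized counts) in Bptf f/f and at -0.89 and -0.53 in Bptf cKO, a difference of 0.88. Pfkm stood at -1.14 and -1.07 relative to Pfkl in Bptf f/f and at -1.76 and -1.66 in Bptf cKO, a difference of -0.60. The ratio of Hk2 to Hk1 was -2.70 and -2.31 in Bptf f/f and -2.02 and -1.90 in Bptf cKO on the log2 scale, a difference of 0.54. The ratios of Ldhb to Ldha and of Aldoc to Aldoa differed by -0.83 and -1.29 between Bptf cKO and Bptf f/f. In all 5 pairs the genotypes did not overlap. In each the exact two-sided permutation test gave p = 0.333, also after Benjamini-Hochberg adjustment over the 5 pairs, the smallest value the design allows. Among single genes, both Bptf cKO libraries were above both Bptf f/f libraries for 23.2% and below for 23.8%. No such share was computed for ratios, and the first gene of each pair was itself apart between genotypes.

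Pfkp took a larger share of the phosphofructokinase step in both Bptf cKO libraries and Pfkm a smaller one, while the step's total overlapped between genotypes. The summed TPM of Pfkl, Pfkp and Pfkm was 276 and 307 in Bptf f/f and 293 and 316 in Bptf cKO (exact permutation p = 0.667, n = 2 per genotype). Pfkp made up 14.4% and 17.1% of this sum in Bptf f/f and 26.0% and 30.6% in Bptf cKO, and Pfkm 31.6% in each Bptf f/f library and 20.5% and 20.2% in Bptf cKO. Pfkl kept the largest share, with 54.0%, 51.2%, 53.5% and 49.2% in the 4 libraries in the same order. Among hexokinase genes Hk2 made up 6.65% and 9.53% in Bptf f/f and 10.1% and 10.8% in Bptf cKO, and Hk3, a hexokinase of myeloid cells, 31.6%, 22.8%, 31.0% and 31.6%. The lowest share of Hk3 was in Bptf f/f replicate 2, which also had the lowest myeloid sum. The summed TPM of the 3 hexokinase genes was 436 and 409 in Bptf f/f and 453 and 533 in Bptf cKO (exact permutation p = 0.333, n = 2 per genotype). Ldha made up 91.5% and 88.1% of the lactate dehydrogenase sum in Bptf f/f and 93.9% and 94.2% in Bptf cKO. These step sums were chosen after the values had been seen, and shares across genes depend on the transcript length taken for each gene.

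**Figure D2:**
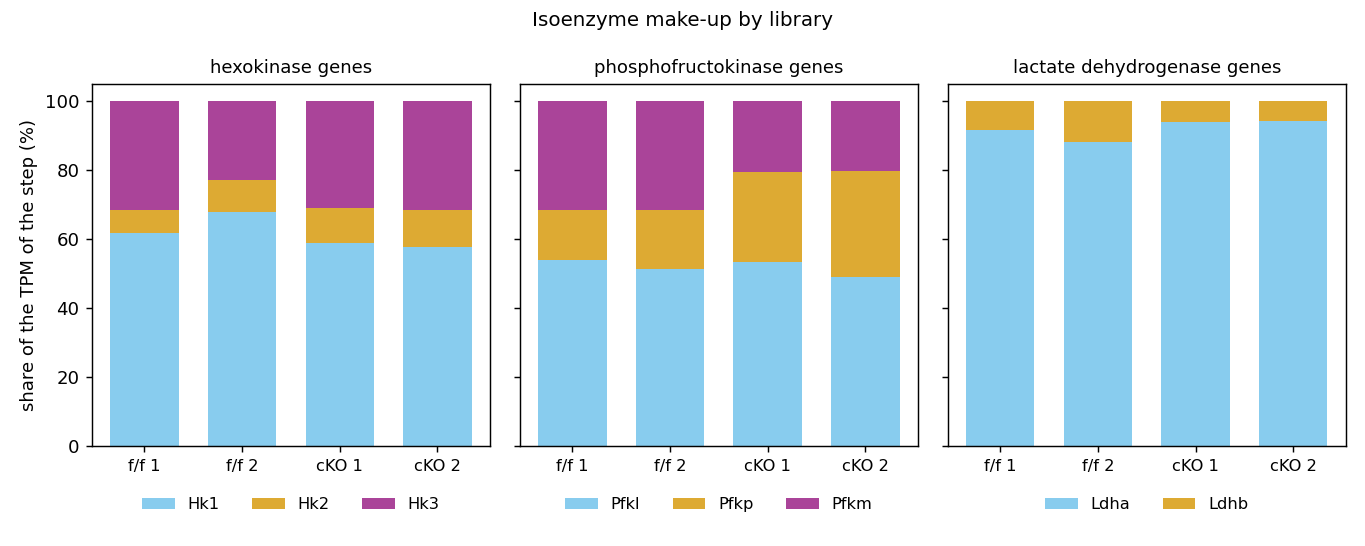
Stacked bars of each gene's share (%) of the summed TPM of its step in each library, for the hexokinase, phosphofructokinase and lactate dehydrogenase genes. The Pfkp segment (yellow, middle panel) spans 14.4% and 17.1% in the Bptf f/f libraries and 26.0% and 30.6% in the Bptf cKO libraries, with Pfkm (purple) smaller in the latter.

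Of 19 further glycolysis enzyme genes, 15 were listed and 14 tested, and none passed an adjusted p of 0.05. By an unadjusted limma p under 0.05, 1 was higher and 5 were lower, beside 6.79% and 8.96% of all genes. The median log2 fold change of the 14 was -0.15. Pklr, the pyruvate kinase of liver and red cells, had 240 and 186 normalized counts in Bptf f/f and 4.55 and 18.3 in Bptf cKO (log2 fold change -4.36, standard error 0.65, adjusted p = 0.0660 in limma). Both Bptf cKO libraries were far below both Bptf f/f libraries, from at least 7 reads, and a pseudocount of 10 gave an adjusted p of 0.0407 and DESeq2 one of 1.58e-09. The erythroid marker sum was also lower in both Bptf cKO libraries, its part in this difference was not tested, and the exons of Hcn3 cover 24.5% of the Pklr transcript. Hcn3 itself had 108 and 65.1 normalized counts in Bptf f/f and 3.90 and 1.41 in Bptf cKO (adjusted p = 0.0533 in limma). Pfkm had 1991 and 2231 normalized counts in Bptf f/f and 1383 and 1500 in Bptf cKO (log2 fold change -0.55, adjusted p = 0.116 in limma, DESeq2 adjusted p = 0.0108). Aldoc, the aldolase of brain, had 272 and 172 against 109 and 81.8 normalized counts (log2 fold change -1.19, adjusted p = 0.182 in limma, DESeq2 adjusted p = 0.0425). Ldhb, the heart-type lactate dehydrogenase, had 627 and 1016 against 497 and 528 (log2 fold change -0.64, adjusted p = 0.305 in limma). This value was -0.99 without Bptf f/f replicate 1 and -0.29 without replicate 2. For these 4 genes, named for their unadjusted p, both Bptf cKO values were the lowest ones, as for 23.8% of all genes. Of the 14 genes tested in this list, 6 were lower in both Bptf cKO libraries, 2 were higher and 6 overlapped.

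**Figure D3:**
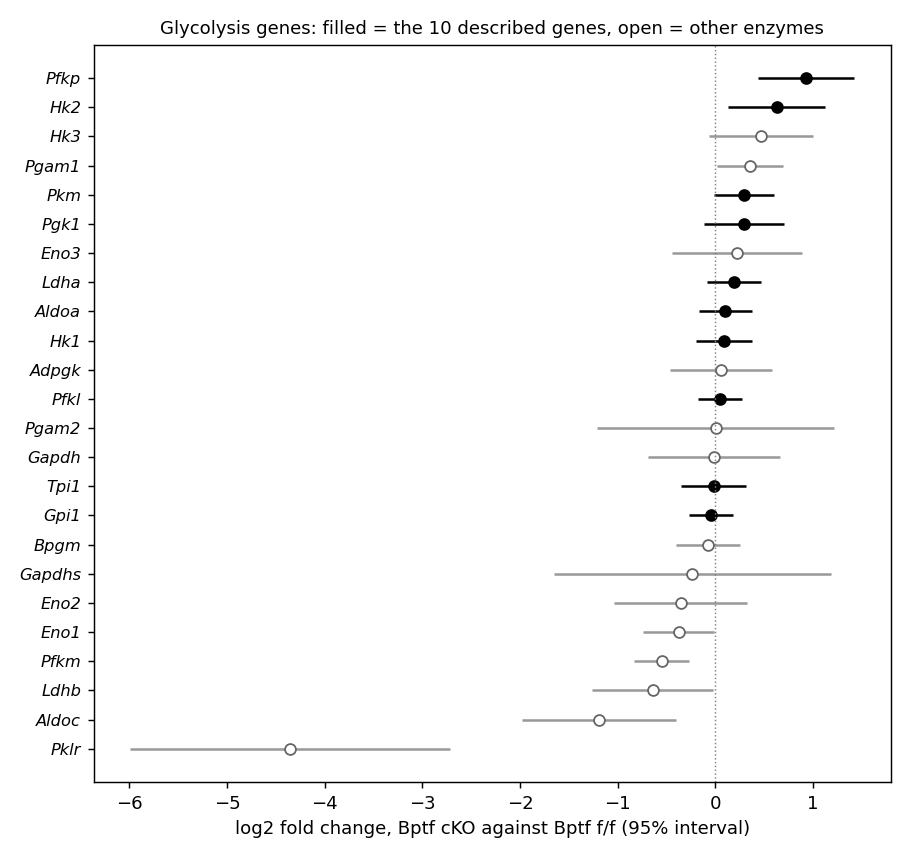
Log2 fold changes (x axis, Bptf cKO relative to Bptf f/f, points) and their unadjusted 95% intervals from limma (lines) for the 10 members (filled) and the 14 other glycolysis enzyme genes tested (open). Pfkp and Hk2 are at the top with 0.93 and 0.63, and Pklr and Aldoc at the bottom with -4.36 and -1.19.

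Gapdh, Eno1 and Pgam1 are enzymes of this pathway that most cells express strongly. By mean TPM over all libraries they lay below 8 of the members and above Pfkp and Hk2, with means of 115 and 113 for Gapdh, 118 and 90.1 for Eno1 and 83.9 and 106 for Pgam1 in Bptf f/f and Bptf cKO. Of the 50-base stretches of the Gapdh transcript, 82.5% also occurred in transcripts of another gene in GENCODE vM21, as did 72.2% for Eno1 and 41.5% for Pgam1. Among the members this share was 68.0% for Pgk1, 34.4% for Pkm, 25.3% for Gpi1, 17.1% for both Ldha and Pfkp, 13.9% for Aldoa and 7.51% for Tpi1. Hk1 and Hk2 shared no such stretch, and Pfkl 0.0543%. The shared stretches of Pgk1 occurred in 5 other genes, those of Pkm in 8, those of Ldha in 14 and those of Gpi1 in 122, and those of Pfkp in Pitrm1 alone. Read length and the treatment of reads with several matches are not given in the sources used here. The levels of Gapdh, Eno1 and Pgam1, and so their place below 8 of the members, are therefore uncertain. Among the members, so are the levels of Pgk1 and Pkm, and to a lesser degree of Gpi1, Ldha and Aldoa. Those of Hk1, Hk2 and Pfkl do not share this limit. Pfkp shared stretches only with Pitrm1, whose exons overlap 18.0% of its transcript on the other strand. The limit for Pfkp is therefore whether counting used strand.

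**Figure D4:**
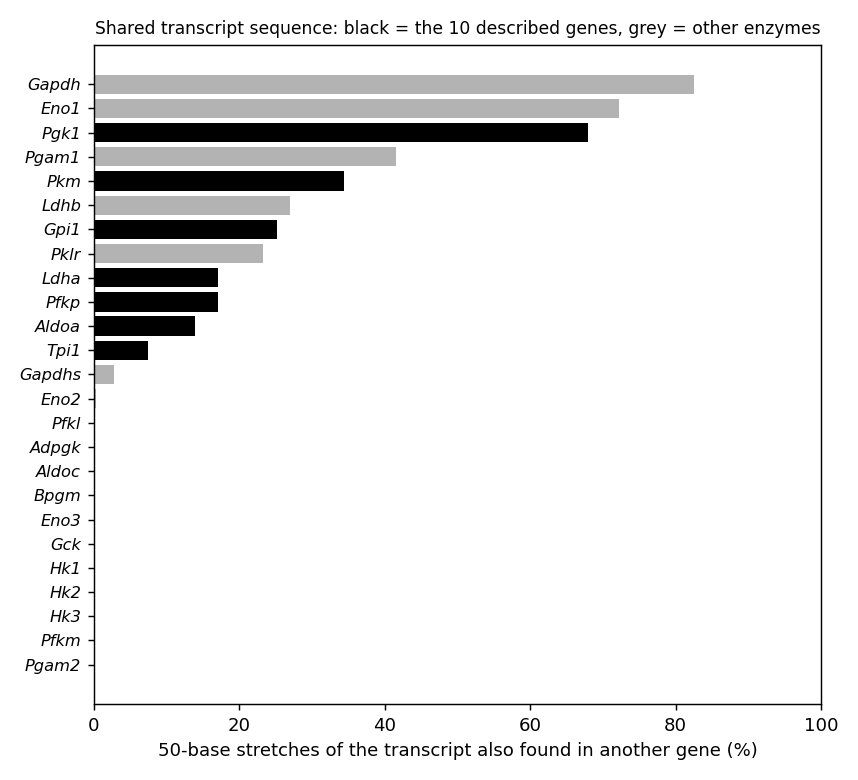
Share (%) of the 50-base stretches of each glycolysis transcript that also occur, on either strand, in an annotated transcript of another gene, with the 10 members in black and the other listed enzymes in grey. Gapdh has the longest bar at 82.5% and Pgk1 the longest among the members at 68.0%, while Hk1 and Hk2 are at 0.

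Around the pathway, none of the 11 genes of glycolysis switch enzymes passed in limma. Pdp1, a phosphatase that activates pyruvate dehydrogenase, had 391 and 464 normalized counts in Bptf f/f and 758 and 904 in Bptf cKO (log2 fold change 0.96, adjusted p = 0.0833 in limma, DESeq2 adjusted p = 4.72e-04). Pdk2, a kinase that turns pyruvate dehydrogenase off, had 619 and 423 against 315 and 268 (log2 fold change -0.81, adjusted p = 0.205 in limma). Pdha1, a subunit of that complex, had 3085 and 3238 against 4037 and 4133 (log2 fold change 0.37, adjusted p = 0.155 in limma, DESeq2 adjusted p = 0.0477), the largest difference among 8 genes of pyruvate entry to mitochondria, none of which passed in limma. These 3 genes were named for their unadjusted p. The genotypes overlapped for 6 of the 11 switch enzymes and 6 of the 8 pyruvate entry genes, beside 7874 of all 14858 genes tested. The median log2 fold changes of the 2 lists were 0.012 and 0.032.

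None of the 9 glucose and lactate carrier genes passed. The lactate carrier gene Slc16a1 had 2008 and 1695 normalized counts in Bptf f/f and 2676 and 2363 in Bptf cKO (log2 fold change 0.45, adjusted p = 0.210 in limma). The glucose carrier genes Slc2a1, with 676 to 1034 normalized counts, and Slc2a3, with 3045 to 4020, overlapped between genotypes. Of 3 tested genes of the gluconeogenic bypass, Pck2, the mitochondrial enzyme that makes phosphoenolpyruvate, had 3810 and 4323 against 6023 and 7911 (log2 fold change 0.77, adjusted p = 0.118 in limma, DESeq2 adjusted p = 0.00123). Rpia, of the pentose phosphate branch, had 1741 and 1698 against 2436 and 2541 (log2 fold change 0.53, adjusted p = 0.0889 in limma, DESeq2 adjusted p = 0.00230), and the other 7 genes of that branch had log2 fold changes between -0.14 and 0.13. Of 10 glycogen genes tested, none passed in limma. At an unadjusted p under 0.05, 2 were higher and 3 lower, beside 6.79% and 8.96% of all genes. Both Bptf cKO libraries were above both Bptf f/f libraries for 4 of them and below for 6, beside 23.2% and 23.8% of all genes. Pygm, a glycogen phosphorylase, had 285 and 277 against 153 and 86.1 normalized counts (log2 fold change -1.29, adjusted p = 0.158 in limma, DESeq2 adjusted p = 0.0256), and Gyg, which primes glycogen, had 1651 and 1922 against 2559 and 2451 (log2 fold change 0.49, adjusted p = 0.145 in limma, DESeq2 adjusted p = 0.0301). Pgm2, a phosphoglucomutase, had 1171 and 1443 against 974 and 981 normalized counts (log2 fold change -0.41, adjusted p = 0.256 in limma).

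The HIF genes gave no call, with 0 of 8 genes passing and a median log2 fold change of 0.0071. Hif1a had 1461 and 1294 normalized counts in Bptf f/f and 1388 and 1075 in Bptf cKO, and Egln3, a prolyl hydroxylase that marks HIF for degradation, had 970 and 733 against 1119 and 1237 (log2 fold change 0.48, adjusted p = 0.273 in limma). Of 14 tested hypoxia targets outside glycolysis, 2 were called higher and none lower at an adjusted p under 0.05 in limma, where 0.740% of all genes were called. At an unadjusted p under 0.05, 2 were higher and 2 lower, beside 6.79% and 8.96% of all genes. The median log2 fold change of the 14 was -0.064, with 6 positive and 8 negative values. Vegfa, the vascular growth factor gene, rose from 550 and 478 to 1561 and 1401 normalized counts (log2 fold change 1.53, standard error 0.13, adjusted p = 0.0226 in limma). Ero1l, which encodes an oxidase of protein folding in the endoplasmic reticulum, rose from 716 and 729 to 1445 and 1491 (log2 fold change 1.02, standard error 0.11, adjusted p = 0.0329 in limma). Both lost the call when Bptf cKO replicate 1 or 2 was left out, with limma adjusted p between 0.143 and 0.288, and Ero1l also without either Bptf f/f library (limma adjusted p = 0.0575 and 0.0722). Ankrd37 had 41.1 and 44.4 against 14.9 and 15.5 normalized counts (log2 fold change -1.43, adjusted p = 0.196 in limma) and Kdm3a had 2246 and 2267 against 1697 and 1933 (log2 fold change -0.32, adjusted p = 0.262 in limma), in the direction opposite to Vegfa and Ero1l. Of the Myc, Mycn and Max genes none passed, and Myc had 7199 and 4685 normalized counts in Bptf f/f and 7173 and 6861 in Bptf cKO.

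**Figure D5:**
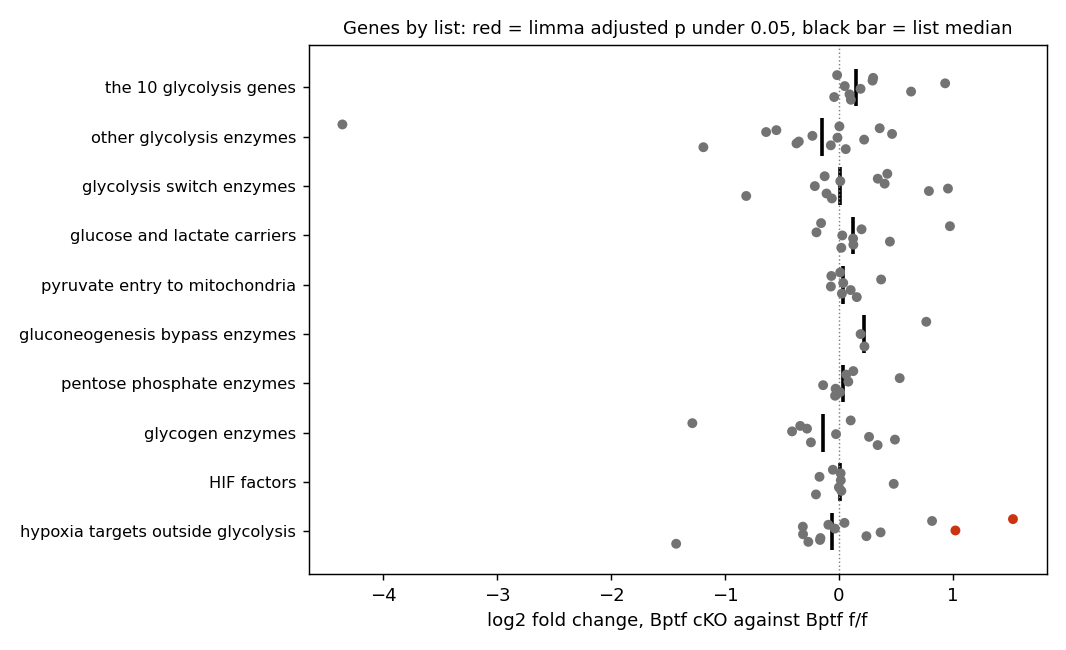
Log2 fold change of each tested gene by list, with red points for a limma adjusted p under 0.05 and a black bar at the list's median. The median of the 10 glycolysis genes is 0.15, and the 2 red points are Vegfa and Ero1l at 1.53 and 1.02.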

How the data were processed

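RNA-seq of sorted LSK cells was available for 2 Bptf f/f and 2 Bptf cKO libraries, grouped by the sample titles. The submitters' processing notes name HISAT2, featureCounts and DESeq2 on GRCm38 (mm10), with no versions, annotation or parameters. The deposited values are a signal, each gene's count scaled by the library's size factor, with the mean over libraries. The deposited log2 fold change with its standard error, test score and p-value columns are the authors' own comparison and were not used. All values were whole multiples of the smallest non-zero value of their library within 0.01 (100%), so reads were recovered as counts. The reads on listed genes numbered between 14091054 and 30134742 per library, and listed genes had at least 11 reads over the 4 libraries. Nothing states that the libraries numbered alike came from the same mice or batch, and p-values measure the spread between the pools.

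The 14858 genes averaging 10 or more were tested with limma 3.58.1 in R 4.3.3 on log2 of the value plus 1, with the prior variance following a trend, no covariate beside genotype, and p-values adjusted by Benjamini-Hochberg. edgeR 4.0.16 and DESeq2 1.42.0 on the recovered reads were alternatives, with other pseudocounts, filters and scalings and each library left out. TPM used the best-ranked APPRIS transcript of each symbol in GENCODE vM21 (98.3% of genes matched). Promoter windows came from RefSeq. Genes were named if they were members, Bptf or Kit, isoenzyme partners, called in a list, or among the 4 largest differences of a list at an unadjusted p under 0.05. Others (Pitrm1, Hcn3, Hif1a and further genes) were named after their values were seen. The members and lists were chosen with earlier results of these data known. A result that this rule would name is not reported here.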

Additional observations from a re-analysis of the deposited data

How the results depend on the processing

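With 2 libraries per genotype, an exact permutation test of 1 gene cannot go below p = 0.333. The counting error of the members was at most 2.84% (SD) in a library, which does not measure the spread between pools. In both genotypes the library numbered 1 had more reads than that numbered 2, so depth and replicate number cannot be told apart. Shared sequence limits Pgk1 and Pkm most. Labels give both genotypes replicate numbers 1 and 2 but no shared batch. The deviations of the libraries numbered 1 correlated at 0.452 across 14858 genes.

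With the replicate block, limma called 2138 of the 14858 genes tested and edgeR 2120 of 14858, so both fits called many more genes throughout. Each called 3 of the 10 members, Hk2 (limma adjusted p = 8.56e-04), Pfkp (4.89e-05) and Pkm (0.0415). Both fits with the replicate block called 6 other glycolysis enzymes, 3 switch enzymes, 4 glycogen genes and 1 gene each among carriers, pyruvate entry, gluconeogenesis, pentose phosphate and HIF genes, and edgeR with the block 4 hypoxia targets. DESeq2 called 819 genes in all (5.51%), 1 member, 3 other glycolysis enzymes and 1 switch enzyme. It also called 1 gene each of pyruvate entry, gluconeogenesis and the pentose phosphate branch, and 2 glycogen genes. Limma without the trend called 2 genes in all and 0 hypoxia targets, and a pseudocount of 10 called 1 other glycolysis enzyme. Recentring on the library medians, which moved the median of all genes from 0.0010 to 0.053, gave Gpi1, Tpi1 and Kit log2 fold changes of 0.0098, 0.035 and 0.041, and quantile normalization gave Pfkl -0.0037, each opposite in sign to the reported value. With each library left out in turn, calls ran from 1 (without either Bptf cKO library) to 117 in all genes, with 64 without Bptf f/f replicate 2, stayed at 0 among the members and ran from 0 to 1 among hypoxia targets. Sign changed within the range for Hk1 (-0.024 to 0.21), Gpi1 (-0.085 to 0.0020), Aldoa (-4.2e-04 to 0.21), Tpi1 (-0.18 to 0.14) and Kit (-0.17 to 0.15). Hk2 ran from 0.41 to 0.85, Pfkp from 0.72 to 1.14, Pgk1 from 0.084 to 0.51, Pkm from 0.20 to 0.40, Ldha from 0.11 to 0.27 and the median of the members from 0.098 to 0.24. The differences of the 5 isoenzyme ratios kept their sign in every alternative, which was largely fixed beforehand. Recentring cancels in a ratio within a library, and leaving out a library cannot reverse groups that do not overlap. The difference of Ldhb to Ldha ran from -1.10 to -0.56 with a library left out. The causes were not tested.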
